A study of Mus musculus with 2 samples.

Results

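Antisense RNAs are transcripts read from the strand opposite another gene. In the combined count table of this study, 1793 of 39017 rows carry the gene type antisense in the GENCODE M21 annotation, and the 259 described here are those whose counts reach 20 or more when both libraries are added. Gm15564 was left out by the rule. Each antisense RNA was set beside its partner, the protein-coding gene that overlaps it on the other strand. A partner was found for 232 of the 259, and 27 had none. The members were chosen by measured values, namely their summed counts, so the levels themselves are given as a description.

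The libraries hold RNA from bone marrow cells sorted as Lin- Sca-1+ c-Kit+ (LSK), a fraction in which haematopoietic stem cells and multipotent progenitors are found. One library came from wild-type (WT) mice, as 1 pool of 12 animals, and the other from miR-146a-/- mice, as 1 pool of 6 animals. All were C57BL/6J mice aged 10 to 14 weeks. Ribosomal RNA was depleted from total RNA. With 1 library per genotype no difference below has a replicate check, no p-value can be given, and each comparison is between these libraries.

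Antisense transcripts arise in several ways. Many start at the promoter of a coding gene and run away from it, because promoters often fire in both directions, and many of these are short-lived and are removed in the nucleus by the RNA exosome. Others start inside a gene or beyond its end and run back across it, and a few are known to act on the gene they overlap, such as Airn, which silences the imprinted gene Igf2r, and Tsix, which opposes Xist on the X chromosome. MiR-146a, the microRNA missing in the mutant mice, limits NF-kB activity by lowering signalling proteins downstream of innate immune receptors.

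Depth was 35069136 WT and 22231389 miR-146a-/- counts. Levels are CPM (counts scaled to a common library size) after TMM scaling, a method that sets the bulk of genes equal between libraries. On the log2 scale the miR-146a-/- library size over that of WT was -1.48 with TMM and -0.66 with total counts, and the median log2 ratio of the 13880 measured genes (20 or more counts) was -0.01 by TMM and -0.83 by total counts. Ratios are therefore relative to the bulk of genes. The gene of the deleted microRNA, Mir146, had 0 counts in both libraries, so it does not check the labels. All 9 LSK and stem cell markers listed were measured, with a summed level of 2492 CPM in WT and 2786 in miR-146a-/-. The 9 lineage markers that the sort should remove summed to 38.9 and 63.3 CPM, mostly from Itgam at 35.9 and 56.8 CPM, and Cd3e and Cd8a had 0 counts in both. The part of these markers in the results below was not tested. In such bulk libraries more RNA per cell and more cells of a type cannot be told apart.

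The pairs to which the results return differ in how the strands overlap, and their sequences show this. The first 3 sequences are the 250 bases upstream of a partner's start, taken from RefSeq (GRCm38.p6) and written in the direction of the partner. They are shown because an antisense RNA that starts inside the partner's first part must be transcribed across them. Capitals mark bases that lie in an annotated exon of the antisense RNA. The window of H2-Eb1, a beta chain of MHC class II, is chr17:34305617-34305866 on the plus strand and holds 88 such bases, from Gm20513. That of Jun, a subunit of the transcription factor AP-1, is chr4:95052223-95052472 on the minus strand and holds 0 exon bases of Junos, whose intron crosses it. That of Atr, a kinase of the DNA damage response, is chr9:95857347-95857596 on the plus strand, and all 250 bases are exon of 1700065D16Rik.
H2-Eb1 promoter: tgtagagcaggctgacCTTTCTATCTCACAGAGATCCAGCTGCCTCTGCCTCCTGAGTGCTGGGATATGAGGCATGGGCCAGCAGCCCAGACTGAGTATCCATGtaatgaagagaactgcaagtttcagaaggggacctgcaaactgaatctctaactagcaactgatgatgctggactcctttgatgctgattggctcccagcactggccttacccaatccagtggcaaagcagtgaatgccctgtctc
Jun promoter: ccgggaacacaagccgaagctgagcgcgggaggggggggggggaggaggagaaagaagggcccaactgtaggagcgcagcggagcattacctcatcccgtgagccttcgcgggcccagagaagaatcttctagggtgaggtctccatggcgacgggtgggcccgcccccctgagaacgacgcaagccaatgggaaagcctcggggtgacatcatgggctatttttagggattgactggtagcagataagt
Atr promoter: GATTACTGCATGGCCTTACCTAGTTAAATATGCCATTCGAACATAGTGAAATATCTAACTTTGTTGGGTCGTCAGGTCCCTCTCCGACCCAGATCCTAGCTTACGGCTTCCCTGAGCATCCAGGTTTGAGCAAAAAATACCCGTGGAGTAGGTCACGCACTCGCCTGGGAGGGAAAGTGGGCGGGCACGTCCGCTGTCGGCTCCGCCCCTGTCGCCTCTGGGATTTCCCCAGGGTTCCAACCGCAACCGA

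Motifs were searched in these windows on both strands, and a match is a description of letters only. Jun held TGACATCA, the AP-1-like element known in its promoter, with its first base 45 bases before the start, and 2.93% of 32851 promoter windows of the same table hold it. The letters ATTGG, an inverted CCAAT box, stood in H2-Eb1 at 59 bases before the start on the partner's strand. On the opposite strand they stood at 35 in H2-Eb1 and at 65 in Jun, where the printed strand reads CCAAT. Of all windows 33.8% held at least 1 on either strand. Atr held an NF-kB site at 31 bases before the start, inside the 1700065D16Rik exon, against 7.25% of windows. TGANTCA (6.75% of windows) and TGACGTCA (1.55%) were in none of the 3.

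The next 5 sequences are stretches of antisense exons that face the coding sequence of the partner, written in the direction of the antisense RNA (GRCm38). Capitals mark bases complementary to the partner's coding sequence. Gm16575, at chr15:79739701-79739845 on the plus strand, faces Sun2, a nuclear envelope protein, and ends in CAT, the complement of the Sun2 start codon. Gm7008, at chr12:40222849-40222956 on the plus strand, does the same to Ifrd1, a transcriptional co-regulator. Rab10os, at chr12:3249790-3249890 on the plus strand, faces the small GTPase Rab10. Gm11175, at chr8:70699538-70699687 on the minus strand, lies wholly in the coding sequence of the AP-1 subunit gene Jund. Brip1os, at chr11:86286441-86286590 on the plus strand, faces Med13, a subunit of the Mediator kinase module.
Gm16575: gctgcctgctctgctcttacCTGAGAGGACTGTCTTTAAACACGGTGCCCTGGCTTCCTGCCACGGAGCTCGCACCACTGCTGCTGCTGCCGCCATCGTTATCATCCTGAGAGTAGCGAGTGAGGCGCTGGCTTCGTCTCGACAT
Gm7008: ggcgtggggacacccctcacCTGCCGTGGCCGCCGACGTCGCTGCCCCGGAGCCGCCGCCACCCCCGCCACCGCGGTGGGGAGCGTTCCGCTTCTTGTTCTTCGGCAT
Rab10os: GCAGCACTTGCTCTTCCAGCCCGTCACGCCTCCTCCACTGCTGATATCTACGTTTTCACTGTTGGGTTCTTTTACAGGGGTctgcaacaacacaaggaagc
Gm11175: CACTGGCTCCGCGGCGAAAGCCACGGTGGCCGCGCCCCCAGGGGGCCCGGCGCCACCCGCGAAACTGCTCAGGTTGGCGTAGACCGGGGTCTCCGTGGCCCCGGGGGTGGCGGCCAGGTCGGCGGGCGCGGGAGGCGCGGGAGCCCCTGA
Brip1os: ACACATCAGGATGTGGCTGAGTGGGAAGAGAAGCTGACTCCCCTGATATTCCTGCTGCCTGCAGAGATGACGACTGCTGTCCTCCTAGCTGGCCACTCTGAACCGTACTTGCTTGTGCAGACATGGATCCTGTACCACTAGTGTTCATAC

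**Figure D1:**
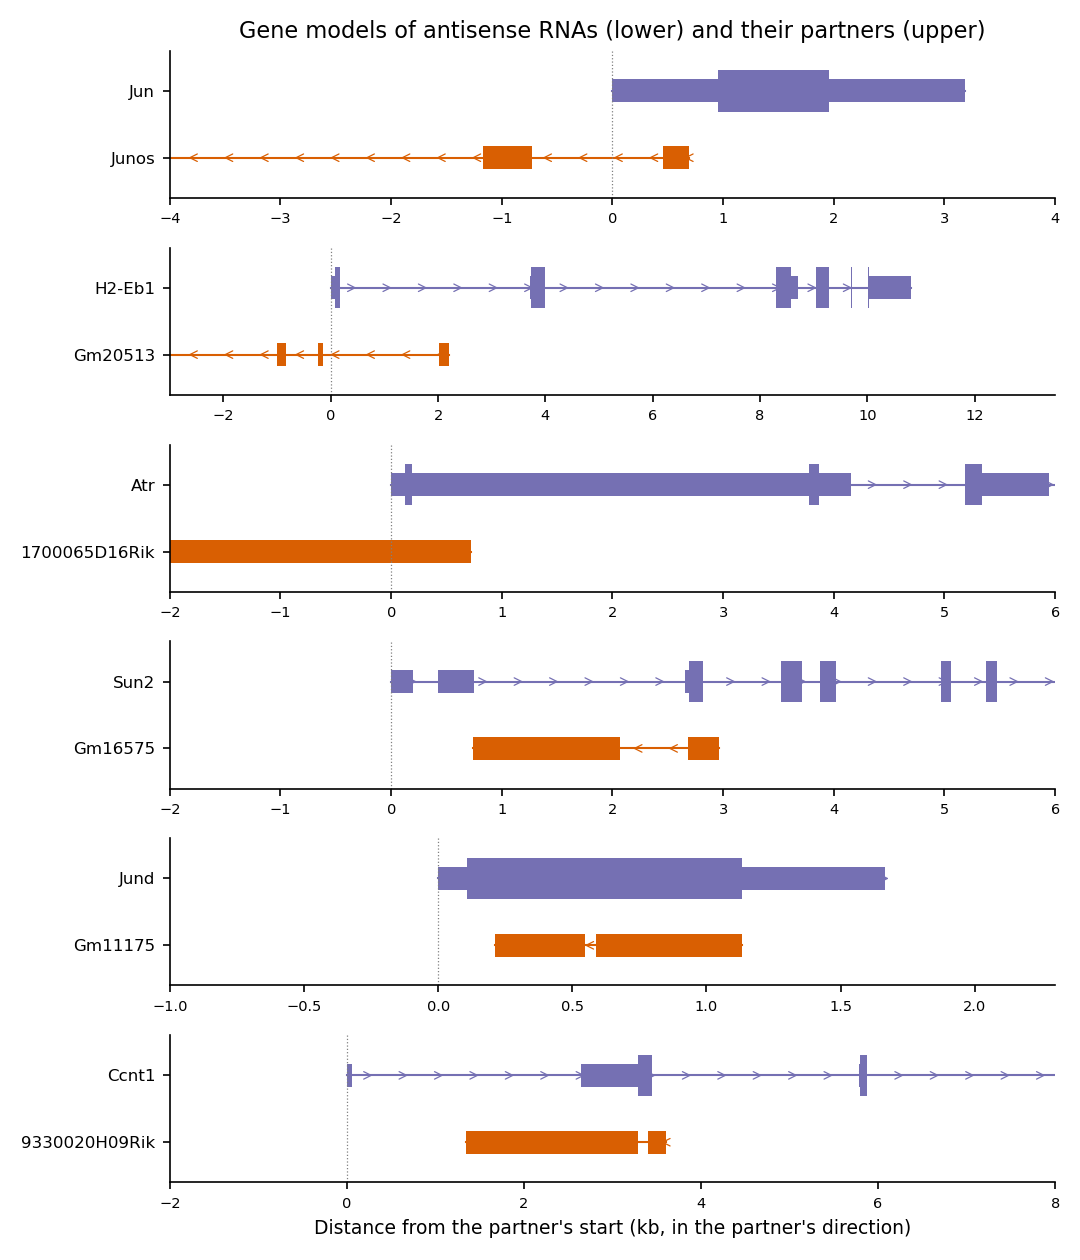
Gene models of 6 pairs from GENCODE M21, partner above and antisense RNA below, against the distance in kb from the partner's start, along the partner's direction; tall boxes are coding exons, low boxes other exons, and arrows show the direction of transcription. Junos and Gm20513 start inside the partner and run out across its promoter, 1700065D16Rik covers the Atr promoter with exon, and Gm16575, Gm11175 and 9330020H09Rik lie inside their partners.

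Across all 208 pairs with a measured partner, 175 had exons facing partner exons and 33 had none. In 111 pairs the antisense exons faced coding sequence. The median share of a member's exon bases that faced partner exons was 14.5%, and Gm11175 was the 1 member that lay wholly on them. Most of the exon length of these RNAs therefore does not face partner exons.

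Whether an antisense count can be read at all depends on whether reads were assigned by strand. That is not given in the sources used here, so it was measured on features lying inside introns of genes with at least 2000 counts, where unspliced RNA of the host gene gives reads on 1 strand. Processed pseudogenes on the host's strand had a median of 16 counts (112 features), and those on the other strand a median of 0 (201 features), with 67.2% of them at 0. Small nuclear RNA genes on the host's strand had 5.42% of the host's counts per base as their median (88 features), against 0 on the other strand (94 features). The 124 antisense genes in such introns also had a median of 0. Counts thus followed the strand of the feature.

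Tsix and Xist gave an upper limit for reads put on the wrong strand. Tsix had 16 and 14 counts in the WT and miR-146a-/- libraries, while Xist, which it overlaps by 1980 exon bases, had 10988 and 49105. If every Tsix count were a misplaced Xist read, 0.452% of reads in the overlap would be on the wrong strand over both libraries, 1.32% by WT alone and 0.258% by miR-146a-/- alone. Applied to the exons each member shares with its partner, the limit over both libraries came to a median of 0.368% of a member's counts. It exceeded 10% in 8 of 232 members. With each library held to its own limit, it exceeded 10% of the WT counts in 37 of 232 members (median 1.38%) and 10% of the miR-146a-/- counts in 5 (median 0.194%). For Gm11175 opposite Jund it came to 351% of the WT and 206% of the miR-146a-/- counts, so in neither library can its level be told from misplaced Jund reads. There the limit allows 91.4 and 26.8 counts, more than the 26 and 13 counted. If Jund reads are spread evenly over its exons, the limit is therefore too high for this pair. For Gm15441 opposite Txnip it came to 197% and 18.3%, and for Junos to 60.2% and 11.5%. The sex of the animals is not given in the labels, and its part in the Xist and Tsix counts was not tested. Reads from a gene on the same strand are a separate matter: 31 members overlap such a gene, 12 of them in exons, Junos and Tug1 included.

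**Figure D2:**
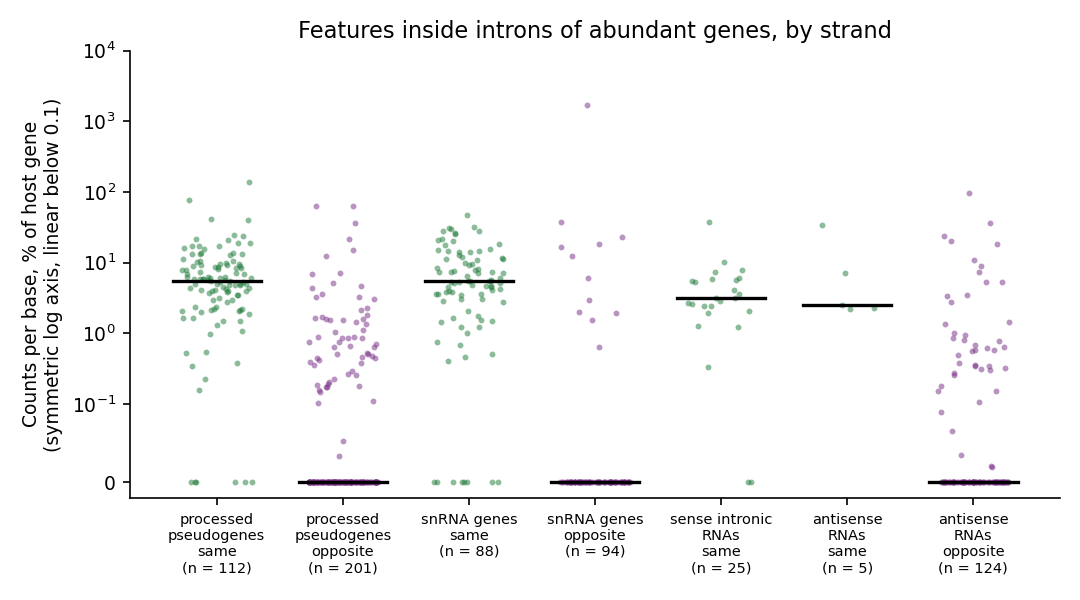
Counts per base of features inside introns of genes with at least 2000 counts, as a percentage of the host gene's counts per base (symmetric log axis, linear below 0.1), by feature type and strand; each point is 1 feature and bars are medians. Features on the host's strand sit at medians of 2.48 to 5.55%, and those on the other strand at a median of 0.

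The antisense RNAs were on the whole higher in the miR-146a-/- library, relative to the bulk of genes. Their median log2 ratio was 0.43 (quartiles 0.01 to 0.95), and 195 of 259 lay above 0. Their summed level was 602 CPM in WT and 773 CPM in miR-146a-/-, a ratio of 1.29, and without Tug1, the most abundant, 509 and 677 CPM, a ratio of 1.33. By the same sum the ratio was 1.31 for the partners, 1.12 for all protein-coding genes and 1.77 for all measured genes. The last holds the long intergenic non-coding RNAs (lincRNAs), whose sum went from 40263 to 411235 CPM though their median log2 ratio was 0.40. It is therefore not a value of the bulk of genes. The summed ratio of all 259 members was no larger than that of their partners, but a sum is weighted towards abundant genes. The partners include Jun and Jund, each with a log2 ratio of 2.06, and their sum was not taken without these. By median log2 ratio the partners stood at 0.09, below the 0.43 of the members. A gene was called higher or lower where the 95% Clopper-Pearson interval of its ratio, which covers counting error only, lay wholly beyond 1.5-fold. By that rule 43 of 259 members (16.6%) were higher and 0 lower, while 5.35% of all measured genes were higher and 1.53% lower. Scaled by total counts alone, under which the median of all genes shifts by -0.82, 5 members were higher (1.93%) and 16 lower (6.18%), and the median was -0.37. Of all measured genes 1.01% were then higher and 51% lower.

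Other classes of long non-coding RNA also had medians above 0, while their shares called varied. LincRNAs had a median of 0.40, with 16.9% of 213 higher and 0 lower. Processed transcripts had a median of 0.38, with 19 of 192 higher (9.90%), and RNAs from bidirectional promoters one of 0.52, with 5 of 39 higher (12.8%). Sense intronic RNAs had a median of 0.70, with 0 of 16 higher. The 50 processed pseudogenes in introns on the host's strand had one of 0.62, with 7 higher (14%). Processed pseudogenes in general (265 genes) had a median of -0.01, with 4.91% higher, and snoRNAs (122 genes) one of 0.43, with 12.3% higher. The antisense share called is close to that of lincRNAs, and that of the intronic pseudogenes is not far below.

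Protein-coding genes gave lower values. Their median was -0.03, and 4.37% were higher and 1.44% lower. Coding genes with 20 to under 200 counts had a median of 0.18, with 7.83% higher and 1.02% lower. Coding genes with 200 or more had one of -0.05, with 3.71% higher. The 38 antisense RNAs with 200 or more counts had a median of 0.33, with 7 of them higher (18.4%). The partners, 203 distinct genes, had a median of 0.09, with 13 higher (6.40%) and 2 lower.

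**Figure D3:**
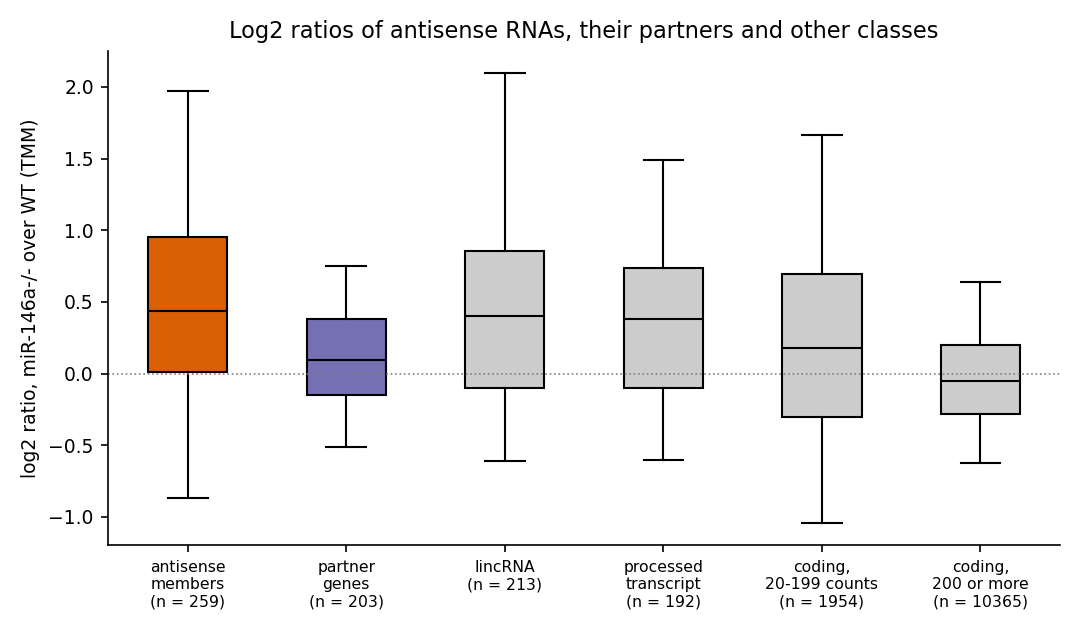
Log2 ratios of miR-146a-/- over WT after TMM scaling for antisense RNAs, their partners, lincRNAs, processed transcripts and coding genes split at 200 counts; boxes are quartiles with the median, and whiskers reach the 5th and 95th percentiles. The medians are 0.43 for antisense RNAs, 0.09 for partners, 0.40 for lincRNAs, 0.38 for processed transcripts, 0.18 for coding genes with few counts and -0.05 for those with more.

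None of the 3 most abundant antisense RNAs was called. Tug1, a long non-coding RNA that shares a bidirectional promoter with the chromatin gene Morc2a, had 4335 WT and 1600 miR-146a-/- counts, a log2 ratio of 0.04 (-0.04 to 0.12), and Morc2a had -0.07. Brip1os had 3106 and 986 counts, a ratio of -0.18 (-0.28 to -0.07), while Med13 opposite it had 6760 and 3341, a ratio of 0.46. Rab10os went the other way, with 1198 and 574 counts, a ratio of 0.42 (0.27 to 0.56), against -0.12 for Rab10. None of these intervals lay beyond 1.5-fold, and in the pairs of Brip1os and Rab10os the RNAs of the 2 strands lay on opposite sides of 0.

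Several abundant pairs stood near each other, though not all. Gm16758, in an intron of Mdga1, a surface glycoprotein gene, had a ratio of 0.33 against 0.32. Gm16536, opposite the protease gene Bace1, had 373 and 158 counts and a ratio of 0.24, equal to that of Bace1. E130307A14Rik had 0.67 against 0.76 for Traf3ip2, the adaptor of the IL-17 receptor. Gm13012 in Ece1 had 0.52 against 0.31, and 5830432E09Rik in the phosphatase gene Ptpre 0.17 against 0.34. Gm26782 beside Tep1, a telomerase component, stood further off, at 0.38 against 0.04. Gm12454 beside the carbonic anhydrase gene Car9 lay at -0.15 against 0.03, on the other side of 0.

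Among the abundant members 3 were called higher. 9330020H09Rik lies at the start of Ccnt1, which encodes cyclin T1 of the elongation factor P-TEFb, with 695 bases facing Ccnt1 exons. It had 302 WT and 282 miR-146a-/- counts, or 6.48 and 16.9 CPM, a log2 ratio of 1.38 (1.14 to 1.62), against 0.49 for Ccnt1. 4930481A15Rik, which meets the end of the transcriptional repressor gene Drap1, had 479 and 299 counts, a ratio of 0.80 (0.59 to 1.01), and Drap1 had -0.65. Gm13375, which has no coding partner, had 269 and 193 counts, a ratio of 0.998 (0.73 to 1.27). In all 3 the smaller library held fewer counts but a larger share of its scaled total, and 4930481A15Rik lay at -0.02 by total counts.

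The 43 members called higher were mostly scarce. Their WT counts ran from 3 to 479 with a median of 37, and their log2 ratios from 0.80 to 4.12 with a median of 1.67. Of the 6 members with under 10 WT counts, 5 were called higher, and these could reach 20 counts in all only through the miR-146a-/- library. In 36 of the 43 the partner was measured. Its median ratio was 0.14, it lay below 0 in 15, and it was itself called in 4.

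Those whose start lies within 1000 bases of the partner's start numbered 66, and 13 of them were higher (19.7%). Of all members 16.6% were higher, and of all measured genes 5.35%. 1700065D16Rik, which covers the Atr promoter, had 41 WT and 72 miR-146a-/- counts, a log2 ratio of 2.27 (1.72 to 2.88), while Atr had 2074 and 627, a ratio of -0.25. 1700055D18Rik had 34 and 57 counts, a ratio of 2.20 (1.59 to 2.88), beside Zbtb5, a zinc finger gene, at -0.23. 4930539J05Rik had 85 and 96 counts, a ratio of 1.65 (1.22 to 2.09), and its partner Ube2d3, a ubiquitin-conjugating enzyme, had 0.09. In these 3 pairs the antisense RNA had more raw counts in the shallower library and the coding gene did not. Uckl1os, which reaches further into the uridine kinase gene Uckl1, gave 11 and 19 counts and 2.19 against -0.08.

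Members that lie inside their partner numbered 61, and 10 were higher (16.4%). Gm16575, whose exon covers the Sun2 start codon, had 22 WT and 51 miR-146a-/- counts, a ratio of 2.65 (1.94 to 3.48), against 0.16 for Sun2 with 7727 and 3089 counts, and its wrong-strand limit was 12.6% of the WT counts. Lrrc75aos2 had 72 and 83 counts, a ratio of 1.67, against -0.12 for Lrrc75a. Gm16174, in Bcl3, a nuclear IkB-family gene, had 17 and 28 counts, a ratio of 2.15 (1.28 to 3.16), against 0.24. Gm26647 had 7 and 16 counts in an intron of Jakmip1, and Gm15743 had 13 and 23 opposite Bdh1, an enzyme of ketone body metabolism, with ratios of 2.55 and 2.24 against 0.26 and -0.10. The partners of these 5 stayed between -0.12 and 0.26. The 5 antisense RNAs were chosen as called members, so the rule of the call itself puts their counting intervals above such partner values. That separation is therefore no separate result.

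Of 66 members whose ends overlap those of the partner, 9 were higher (13.6%). 4930524O07Rik, opposite the Rac exchange factor gene Dock3, had 21 and 33 counts, a ratio of 2.09 (1.30 to 2.99) against 0.44. Gm16098 had 9 and 16 counts and a ratio of 2.22, and its partner Fam83c was all but silent with 1 and 0 counts. None of the 10 members that hold their whole partner was called.

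**Figure D4:**
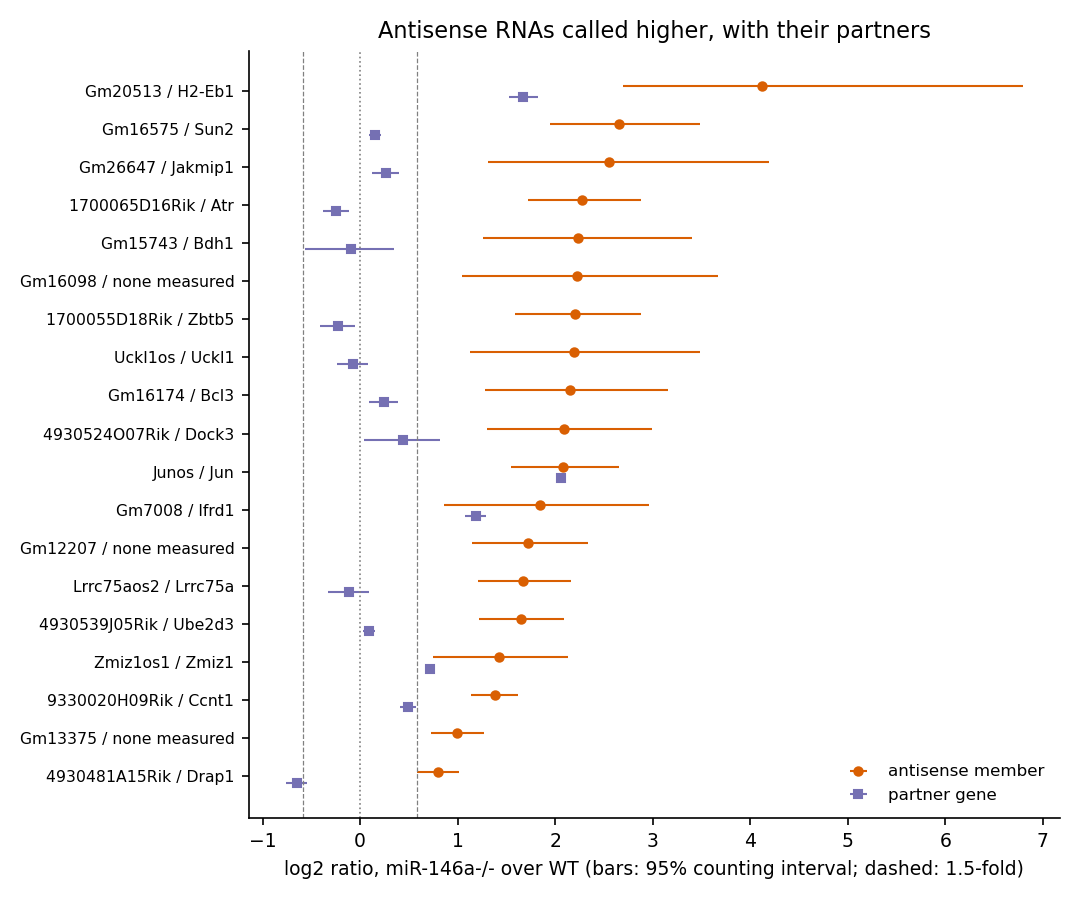
Log2 ratios of miR-146a-/- over WT for 19 of the 43 antisense RNAs called higher (circles) and their measured partners (squares), with 95% counting intervals as bars; dashed lines mark 1.5-fold. Most partners sit near 0, and those of Gm20513, Junos, Gm7008 and Zmiz1os1 lie above 1.5-fold with their antisense RNA.

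In 4 pairs both strands were called higher. Jun had 29459 WT and 44080 miR-146a-/- counts, a log2 ratio of 2.06 (2.04 to 2.08). Junos had 47 and 72 counts, a ratio of 2.08 (1.54 to 2.66). Junos made up 0.159% of the pair's counts in WT (0.117 to 0.212%) and 0.163% in miR-146a-/- (0.128 to 0.205%), so its share of the pair was the same within counting error in libraries where both RNAs differed about 4-fold. By the limits above, up to 60.2% of the WT and 11.5% of the miR-146a-/- counts of Junos could be misplaced Jun reads. These are upper limits, and for Gm11175 the same limits exceeded the counts found.

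H2-Eb1 had 717 and 821 counts, a ratio of 1.67 (1.53 to 1.82), and Gm20513, which shares no exon base with it, had 3 and 23, a ratio of 4.12 (2.69 to 6.80). The share of Gm20513 in the pair was 0.417% in WT (0.0860 to 1.21%) and 2.73% in miR-146a-/- (1.74 to 4.06%). These intervals do not overlap. Gm20513 had the highest ratio of all members, and it rests on 3 WT counts. With so few, Gm20513 could reach the lower limit on counts only through the miR-146a-/- library. Its high ratio and the gap between the shares are therefore partly set by the rule that chose the members.

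The other two pairs called on both strands differed less. Ifrd1 had 1619 and 1319 counts, a ratio of 1.18, and Gm7008 had 15 and 20, a ratio of 1.84 (0.85 to 2.96). Zmiz1, a co-activator of nuclear receptors and Notch, had a ratio of 0.72, and Zmiz1os1 had 38 and 37 counts, a ratio of 1.42 (0.75 to 2.13). In neither pair did the share taken by the antisense RNA differ beyond counting error. The wrong-strand limit was 7.81% of the WT counts of Gm7008 and 15.9% of those of Zmiz1os1.

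In 11 pairs the partner was called and the antisense RNA was not. Jund had the most counts of these partners, with 13166 in WT and 19689 in miR-146a-/-, a ratio of 2.06, while Gm11175 opposite it had 26 and 13 counts, a ratio of 0.47 (-0.60 to 1.49). Its share of the pair went from 0.197% (0.129 to 0.289%) to 0.0660% (0.0351 to 0.113%). Jun and Jund thus had equal ratios. The share of Gm11175 lies under the wrong-strand limit in both libraries, and that limit is itself lower in miR-146a-/-, so the lower share cannot be read as one of Gm11175 RNA.

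The transcription factor gene Sox8 had 39 and 52 counts, a ratio of 1.87, and 2810468N07Rik, which starts 328 bases inside it, had 123 and 47, a ratio of 0.09 (-0.43 to 0.59). The antisense RNA held 75.9% of the pair's counts in WT (68.6 to 82.3%) and 47.5% in miR-146a-/- (37.3 to 57.8%). H2-Q4, an MHC class I gene with near-identical relatives between which reads may be split, had 7286 and 4614 counts, a ratio of 0.82, and Gm11131 had 369 and 103, a ratio of -0.36 (-0.69 to -0.04). In both pairs the coding strand was higher in the miR-146a-/- library and the antisense RNA was level or lower.

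The other 8 such pairs, apart from Zeb2 with its listed antisense RNA Zeb2os, were chosen after their values were seen, as was Gm11175. Their partners were higher in 6, with ratios from 0.70 for the transcription factor gene Zeb2 and 0.71 for Prdm16, a regulator of stem cells, through 0.72 for the histone demethylase gene Kdm7a, 0.75 for Cytip, a cytohesin partner of leukocytes, and 1.04 for the linker histone gene H1fx to 1.66 for C130026I21Rik. They were lower in 2: Riox1, a ribosomal oxygenase gene, with 962 and 163 counts, had -1.08, and Ecsit, an adaptor of Toll-like receptor signalling, with 858 and 171, had -0.85. Opposite Ecsit, Gm16845 had 102 and 68 counts, a ratio of 0.89 (0.43 to 1.35), and its share of the pair went from 10.6% (8.75 to 12.7%) to 28.5% (22.8 to 34.6%). Ecsit and Gm16845 thus lay on opposite sides of 0, whereas the interval of Gm26571 opposite Riox1, with 16 and 4 counts (-2.56 to 1.11), held the ratio of its partner.

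Taken over the 208 pairs, the ratio of the antisense RNA told little of that of its partner. Both lay on the same side of 0 in 114 pairs (54.8%), and among 1141 pairs of coding genes on opposite strands in 55.9%. The correlation across pairs was 0.11 (Pearson) and 0.02 (Spearman), as a description over points from the same 2 libraries. Without Gm20513 Pearson's r was 0.04, and without Gm20513 and Junos 0.0007. By layout it was 0.55 for the 28 pairs whose starts overlap by more than 1000 bases, and 0.16 there without Gm20513. It was 0.14 where starts lie within 1000 bases, -0.09 where ends overlap, 0.03 for members inside partners and -0.31 for the 9 partners inside members.

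**Figure D5:**
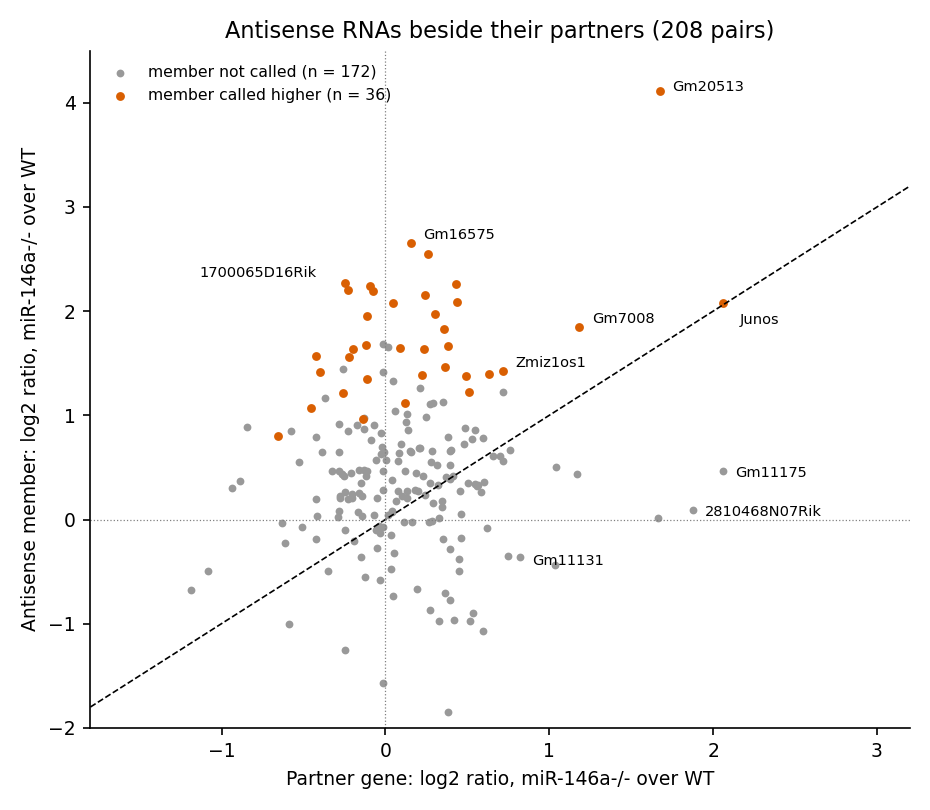
Log2 ratio of each antisense RNA against that of its partner, miR-146a-/- over WT after TMM scaling, for 208 pairs; filled orange points are the 36 members called higher, and the dashed line marks equal ratios. Points form a cloud around small partner ratios, with Junos on the line, Gm20513 above it, and Gm11175 and 2810468N07Rik below it.

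The antisense RNA lay above its partner in 145 of 208 pairs (69.7%), by a median of 0.40. Within a library the share of a pair's counts taken by the antisense RNA needs no scaling between libraries. That share was higher in miR-146a-/- with intervals apart in 44 pairs and lower in 6, which is 21.2% and 2.88%. Intervals were apart in 38.8% of coding pairs, which have more counts. There the smaller gene of the pair gained in 212 and lost in 231, and with a smaller gene under 200 counts it gained in 37 and lost in 11 of 286, with a median difference of 0.28. The scarcer gene of a pair thus gained more often than it lost also where both genes code for protein, if it was scarce.

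The 6 pairs with a lower share were those of Brip1os, Gm11131, 2810468N07Rik and Gm11175, described above, 1110002L01Rik and 9130221H12Rik. That of Gm11175 rests on counts that may be misplaced reads. 1110002L01Rik, which faces the last exon of the kinesin gene Kif3c with 2617 bases, had 531 and 137 counts, a ratio of -0.47, and its share went from 39.2% (36.6 to 41.9%) to 31.1% (26.8 to 35.7%). 9130221H12Rik, inside the kinase gene Gsk3a and chosen after its values were seen, had 359 and 81 counts, a ratio of -0.67 (-1.04 to -0.32) against 0.20, and its share went from 7.24% (6.53 to 7.99%) to 4.11% (3.28 to 5.08%). Of the 259 members 91 had an interval wholly above 0 and 8 one wholly below 0, a looser rule than that of the call. The like counts over all measured genes were not made, so these numbers are a description only. Beside Brip1os, 1110002L01Rik, Gm11131 and 9130221H12Rik the 8 were Trmt61b (-0.50), Gm15879 (-0.99), 6330403L08Rik beside Pdgfa (-1.01) and Gm16299 (-1.11).

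By layout, the members' median ratio was 0.51 for starts within 1000 bases, 0.45 for starts that overlap further, 0.39 for ends that overlap, 0.41 for members inside partners and 0.11 for the 10 that hold their partner, of which 0 were called. Partner medians were -0.01, 0.04, 0.06, 0.26 and 0.21 in the same order. Of the 69 members with an exon on the 250 bases upstream of their partner, 14 were higher (20.3%). Their median was 0.53, against -0.02 for the partners. Of the 163 without one 25 were higher (15.3%), with 0.37 against 0.16. Among members with a partner, the 36 clear of all exons on the other strand had a median of 0.43, as did the 196 that face some.

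Per kilobase of exon the antisense RNAs were far scarcer than their partners, with a median of 8.05% of the partner's level in WT and 11.5% in miR-146a-/-. In 13 pairs the antisense RNA was the denser in both libraries. Tug1 stood at 9.56 and 9.83 CPM per kilobase against 9.52 and 9.06 for Morc2a, which is no more than level. Gm12454 stood at 7.34 and 6.64 against 3.30 and 3.38 for Car9, and Gm16536 at 5.04 and 5.95 against 4.18 and 4.94 for Bace1. 2810468N07Rik exceeded Sox8 by more in WT, at 1.24 against 0.268, than in miR-146a-/-, at 1.32 against 0.998. Plxna4os1, 1810034E14Rik in the phosphatase gene Cdc14b, Mypopos and Gm20457 in Mtmr10 were also denser than their partners, with ratios from -0.21 to 0.65 and none called.

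A list of 24 known regulatory RNAs held 10 of gene type antisense. Of these, 6 were members and none was called. Airn had 64 WT and 21 miR-146a-/- counts, a ratio of -0.13 (-0.91 to 0.60), and Igf2r had -0.03. Tsix had a ratio of 1.25 (0.14 to 2.41), beside the 10988 and 49105 counts of Xist given above, and what part the sex of the pooled animals has in either was not tested. Zeb2os had 49 and 27 counts, 0.61 (-0.12 to 1.33), beside 0.70 for Zeb2.

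At the HOX clusters, whose genes set position in the embryo and act in haematopoietic progenitors, Hoxb3os had 56 and 27 counts, a ratio of 0.42 (-0.29 to 1.11), beside 0.23 for Hoxb3. Hoxb5os had 30 and 5 counts, a ratio of -1.07 (-2.83 to 0.27), beside 0.60 (0.07 to 1.12) for Hoxb5 with 90 and 49. Hoxaas3 had 20 and 12 counts, 0.72 (-0.42 to 1.84), beside 0.09 for Hoxa7. At this depth no difference between Hoxb3os or Hoxaas3 and its coding partner was detectable, and the intervals of the Hoxb5 pair overlap as well.

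A few coding genes have more than 1 antisense RNA, and these were chosen after their values were seen. Meis1, a transcription factor gene of stem cells, had a ratio of 0.39, and its antisense RNAs Gm16140 (224 and 105 counts) and Gm16141 (42 and 24) had 0.38 and 0.66. Pi4kb, a lipid kinase gene, had -0.13 against 0.97 for A730011C13Rik and 0.48 for Gm15265. Atr faces Gm16794 at its far end, with 30 and 13 counts and a ratio of 0.27 (-0.79 to 1.25), against 2.27 (1.72 to 2.88) for 1700065D16Rik at its start. Arhgap27 had -0.02, and its antisense RNAs Arhgap27os3, Arhgap27os1 and Arhgap27os2 had 0.28, 0.46 and -1.57. At Atr the intervals of the antisense RNAs at either end did not overlap, and at Arhgap27 and Meis1 they did.

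The 27 members without a coding partner had a median of 0.54, and 4 were higher (14.8%). Beside Gm13375 these were Gm12207, with 46 and 55 counts and a ratio of 1.72 (1.15 to 2.33), which lies on the same strand as Skp1a, and, chosen after their values were seen, Gm4285 with 149 and 112 counts and Gm15859 with 13 and 16. Their ratios of 1.06 and 1.72 lie within the range of the members with a partner.

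Genes of nuclear RNA surveillance, which trim or destroy antisense and upstream transcripts, were on the whole slightly lower in the miR-146a-/- library. Of 30 listed, 29 were measured, 6 lay above 0 and 23 below, and the median was -0.20. All 29 had over 200 counts. Coding genes with 200 or more counts had a median of -0.05, with 44.2% of them above 0. None was called higher and 2 were called lower (1.53% of all measured genes were): Exosc8, an exosome core subunit, with 899 and 167 counts and a ratio of -0.95 (-1.20 to -0.71), and Ncbp2, a cap-binding subunit, with 1109 and 209 and -0.93 (-1.15 to -0.71). Ints11, the Integrator endonuclease, followed at -0.70 without a call. At the other end stood Zcchc7 at 0.46, Pcf11 at 0.38 and Tent4b at 0.20, of which Zcchc7 and Tent4b belong to the polyadenylating complex that feeds the exosome. No relation of these values to those of the antisense RNAs was tested.

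The lower limit on counts falls where antisense genes are many. At 18 counts there were 11 antisense genes and at 19 there were 4, all left out, and at 20 there were 9 and at 21 there was 1. Just outside, Gm20652 had 8 and 10 counts, and just inside, Gm15417 had 8 and 12 and Gm15651 had 17 and 3. Of the 259 members 168 had under 100 counts in all and the median was 66.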

How the data were processed

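RNA was measured in 1 WT and 1 miR-146a-/- library. The authors deposited whole-number read counts per Ensembl gene, without normalisation. No other values were used. STAR 2.5.3a, Salmon 0.9.0 and the build mm10 are listed, with no role, per the submitters' processing notes. For the counting program and its annotation, the sources used here give no name. The labels' protocols call the libraries single-stranded.

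Names, types and exons came from GENCODE M21, in which 37693 of 39017 identifiers had a name. If another annotation was counted, lengths and overlaps here can differ from those counted. Library sizes were computed by TMM (edgeR 4.0.16, R 4.3.3) over 13880 genes with at least 20 counts. With 1 library per genotype no count model was tested. Log2 ratios used a prior count of 0.5, and intervals are exact 95% Clopper-Pearson intervals of the share of counts. They cover counting error only, because each genotype has 1 library. Reads here carry no molecular identifiers, so the intervals take each read as a separate molecule. The interval step was checked on simulated data. The partner was the coding gene with the most exon overlap on the other strand, then the most gene overlap.

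The members and lists were chosen with earlier results of these data known. One listed marker is not reported here by name. The text names the 15 most abundant members, up to 15 called members by the interval bound nearest to 0, pairs with both called, up to 8 members denser than their partner, listed known antisense RNAs, and up to 3 surveillance genes in either direction. Genes outside this rule were chosen after their values were seen. These are the examples below 20 counts and those at the limit, the wrong-strand examples, members with intervals below 0, and partners called alone. Alternative settings were total counts, size factors of DESeq2 1.42.0, other count limits, a prior count of 5, a 2-fold threshold, other partner choices and, added after the data were seen, members clear of same-strand genes or of a high wrong-strand limit, and removal of Tug1.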

Additional observations from a re-analysis of the deposited data

How the results depend on the processing

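The direction of the class as a whole differed between scalings. By total counts 5 members were called higher and 16 lower. Their median was -0.37 and their summed level 0.727 times that of WT. The partners then gave 3 higher, 103 lower and a median of -0.73, the surveillance genes 24 lower and a median of -1.02, and the log2 ratio of 4930481A15Rik was -0.022. Of all 13880 genes 140 were then higher and 7077 lower, since that scaling shifts all ratios down by a like amount. With at least 200 counts, which leaves 38 members and 31 pairs, 7 members were higher with a median of 0.33, 1 partner was higher and 0 lower, 14 pairs lay on the same side of 0, the summed level was 1.17 times that of WT, and the member's share of the pair was higher in 9. At a 2-fold threshold 17 members and 6 partners were higher, and 0 partners and 0 surveillance genes lower. The share of all measured genes called at that threshold was not computed, so these counts are a description only. The 59 members clear of all exons on the other strand, with or without a partner, which leaves 33 pairs, gave 9 higher members, 3 higher and 0 lower partners and 22 pairs on the same side. The last subset and that with 200 counts hold fewer genes, so their counts cannot be set directly beside those of all members. As shares, 18.4% of the members with 200 counts were higher, against 16.6% of all members and 3.71% of coding genes with 200 or more counts. Of the pairs with 200 counts 45.2% lay on the same side of 0, against 54.8% of all pairs. What part the smaller number of genes has in these changes was not tested. The other 53 values of comparisons kept their direction and lay within the spread allowed, DESeq2 size factors among them (43 higher, 0 lower). Chosen after the data were seen, 38 of 228 members with no gene on their own strand and 41 of 251 with a wrong-strand limit of at most 10% were higher, and with that limit taken from the WT library alone 34 of 222. No paired analysis was possible because each genotype has 1 library, which also leaves no replicate to leave out. Depth limits the precision of single members, since 168 of 259 have under 100 counts in all.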
